A study of Mus musculus with 2 samples.

Results

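Cux1, Myb, Gata3, Foxn1, Foxe1, Trps1 and Vdr are 7 transcription factor genes of the 56694 genes counted in single cells of newborn mouse back skin. They were selected on their measured levels in these same cells, together with what is known of them in the hair follicle, so the levels and genotype differences below are a description and carry no test. Each gene was found under its symbol as a single identifier in the files. Their UMIs (unique molecular identifiers, 1 per captured RNA molecule) were described across groups of keratinocytes that were built and named without these 7 genes.

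The data are 2 libraries made from epidermal whole mounts of dorsal skin at postnatal day 2. One library came from Gli2EKO mice (K14Cre tg; Gli2 fl/fl, on a C57BI/6N background), in which Cre recombinase driven by the keratin 14 promoter deletes floxed Gli2 in keratinocytes, and not in the dermis. The other came from control littermates, labelled WT, which carry floxed Gli2 without Cre according to the study's methods. The number of mice behind each library is not given in the sources used here, and with 1 library per genotype no difference between genotypes has a replicate check.

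The hair matrix is the pool of dividing cells at the base of the follicle that gives rise to the inner root sheath (IRS), the cuticle and the hair shaft. Gata3, a zinc finger factor, and Cux1, a homeodomain factor, are known for their roles in the IRS, Foxn1 is the forkhead factor lost in nude mice, and Trps1 is the GATA-type repressor mutated in tricho-rhino-phalangeal syndrome. Myb is a factor of dividing progenitors, Foxe1 is a forkhead factor of thyroid and follicle, and Vdr is the vitamin D receptor, which the hair cycle needs.

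After filtering, 4456 control and 3093 Gli2EKO cells remained, with medians of 11806 and 11909 UMIs per cell, and no cell barcode was shared between the libraries. Of these, 5626 were keratinocytes, 3324 control and 2302 Gli2EKO. They formed 17 groups, 10 classes named from marker genes and 7 clusters that no marker list named, which are called here by genes that mark them. The matrix-like class held 397 control and 160 Gli2EKO cells (11.9% and 6.95% of keratinocytes) and the IRS-like class 342 and 136 (10.3% and 5.91%), whereas the basal-like class of the interfollicular epidermis (IFE) held 382 and 593 (11.5% and 25.8%). The IRS-like class was shallow, with a median of 7783 and 7754 UMIs per cell and 6.39% mitochondrial UMIs. In the matrix-like class the 7 fibroblast markers summed to 1752 and 1650 CPM, against 27858 and 25033 CPM in the fibroblasts. Dcn, 1 of the 7, was also the first of the genes that mark this class among keratinocytes. The part of these markers in the values of the class was not tested. Gli2 itself stood at 83.6 and 85.1 CPM in keratinocytes, but the assay reads the 3′ end and the deleted exons are not given in the sources used here, so it does not check the labels.

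The 7 genes lie on 6 chromosomes of GRCm39. Cux1 spans 320 kb of chromosome 5 (136276755 to 136596408), Trps1 spans 236 kb of chromosome 15 (50518148 to 50753859), and the small Foxe1 gene covers 2.80 kb of chromosome 4 (46343609 to 46346412). Myb lies at 21000834 to 21036883 on chromosome 10, Gata3 at 9861889 to 9894845 on chromosome 2, Foxn1 at 78248403 to 78277384 on chromosome 11, and Vdr at 97752306 to 97808511 on chromosome 15. All but Foxe1 are on the minus strand.

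Because the libraries differ in a Gli factor, the promoters were searched for the Gli binding letters GACCACCCA and for the shorter run CCACCC inside them, on both strands. Promoter sequences from RefSeq on GRCm38.p6, 250 bases before to 50 bases after the start, were given for 5 of the 7 genes, and those of Foxe1 and Trps1 were not analysed here. GACCACCCA was in 0 of the 5, and in 0.253% of all 32851 promoters of that length. CCACCC was in 3 of the 5, and in 31.5% of all promoters. The 3 that hold it are shown 5′ to 3′, with CCACCC or its reverse complement GGGTGG in capitals.
Cux1 (chr5:136565932-136566231, minus strand): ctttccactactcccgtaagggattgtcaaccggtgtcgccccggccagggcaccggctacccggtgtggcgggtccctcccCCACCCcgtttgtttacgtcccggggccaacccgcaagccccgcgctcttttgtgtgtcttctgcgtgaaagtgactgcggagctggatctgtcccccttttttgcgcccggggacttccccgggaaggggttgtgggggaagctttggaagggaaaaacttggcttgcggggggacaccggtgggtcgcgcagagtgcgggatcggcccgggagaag
Myb (chr10:21160935-21161234, minus strand): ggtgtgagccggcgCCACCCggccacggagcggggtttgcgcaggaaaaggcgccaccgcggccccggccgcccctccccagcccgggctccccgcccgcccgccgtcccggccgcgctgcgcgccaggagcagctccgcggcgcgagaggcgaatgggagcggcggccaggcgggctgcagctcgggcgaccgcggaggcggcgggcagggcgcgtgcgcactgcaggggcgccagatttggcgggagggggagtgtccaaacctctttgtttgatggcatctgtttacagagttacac
Gata3 (chr2:9878551-9878850, minus strand): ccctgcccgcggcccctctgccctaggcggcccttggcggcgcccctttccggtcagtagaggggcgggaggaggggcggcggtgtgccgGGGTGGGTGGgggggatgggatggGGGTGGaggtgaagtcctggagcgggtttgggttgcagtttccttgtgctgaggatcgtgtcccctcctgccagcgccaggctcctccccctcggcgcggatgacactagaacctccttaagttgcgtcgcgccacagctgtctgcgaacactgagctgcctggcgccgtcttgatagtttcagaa
The Cux1 match starts 168 bases and the Myb match 236 bases before the start. The Gata3 promoter held 3 matches on the other strand, at 160, 156 and 136 bases before the start, of which the first and the second overlap. Foxn1 held no CCACCC but 1 CCAAT on the reverse strand, 24 bases before its start, which 37.4% of all promoters also hold, and AGATAA, a run bound by GATA factors, was in 0 of the 5 against 11.2% of all. The 5 promoters were 61.3% to 75.0% G and C, against a median of 52.7%.

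Cux1 was highest in the follicle's matrix-like and IRS-like classes in both libraries. It stood at 1995 CPM (counts scaled to the UMI total of the group; 95% interval 1949 to 2041) in control IRS-like cells and 1382 CPM (1322 to 1443) in Gli2EKO ones, and at 1132 (1106 to 1157) and 847 (813 to 882) in matrix-like cells. Between these lay a small cluster marked by Lef1 and Krt35, at 1276 CPM in control and 1174 in Gli2EKO. In control, IRS-like and matrix-like cells together held most Cux1 UMIs of all keratinocytes, 33.4% and 35.3%. Cux1 was also high in a cluster of Acta2- and Tagln-positive keratinocytes, at 1043 CPM in control and 379 in Gli2EKO. Shaft-like cells had 562 and 538 CPM and hair lineage-like cells 424 and 550, while the outer root sheath and stem cell-like class (ORS/SC-like) had 55.8 and 16.7 CPM. All intervals here are exact and cover counting error only.

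Myb was concentrated in the matrix. Matrix-like cells had 75.8 CPM (69.4 to 82.6) in control and 45.1 (37.5 to 53.7) in Gli2EKO, and held 72.2% and 61.6% of all keratinocyte Myb UMIs. IRS-like cells came next in control with 21.1 CPM against 6.74 in Gli2EKO, from 77 and 10 UMIs. The 15 other groups lay at or below 7.56 CPM in control and 12.3 CPM in Gli2EKO. Myb was thus low outside the class named from Shh, Msx1 and other matrix markers.

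Gata3 was highest in the IRS-like class but was not restricted to it. IRS-like cells had 303 CPM (285 to 321) in control and 347 (317 to 378) in Gli2EKO. Sebaceous gland-like (SG-like) cells followed with 175 and 123 CPM, then IFE basal-like cells with 155 and 133, and upper follicle-like cells with 138 and 140. Matrix-like cells had 113 and 99.5 CPM. The lowest levels were in the hair-forming groups other than matrix and IRS, with 29.5 and 9.18 CPM in shaft-like, 11.7 and 6.18 in hair lineage-like and 10.0 and 16.3 in the Lef1/Krt35 cluster.

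Foxn1, a gene of differentiating cells, was high in 3 groups that do not stand apart from each other in either library. The Lef1/Krt35 cluster had 93.3 CPM (62.0 to 135) in control and 106 (56.4 to 181) in Gli2EKO, from 28 and 13 UMIs. Shaft-like cells had 72.1 and 94.8 CPM and IRS-like cells 69.6 and 93.7. The next were suprabasal-like IFE cells at 16.8 and 17.5 CPM and a cluster with Krt79 and Krt10 at 16.2 and 20.6. Matrix-like cells had 4.71 and 3.24 CPM, in the class where Myb was highest. No Foxn1 UMI was counted in ORS/SC-like cells of either library, where 3 counts would have been 1.26 and 2.08 CPM.

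Trps1 led in the shaft side of the follicle and in the dermis. The Lef1/Krt35 cluster had 1936 CPM (1782 to 2100) in control and 2193 (1939 to 2471) in Gli2EKO, and shaft-like cells had 872 in both. The Lef1/Krt35 cluster was also the shallowest group, with a median of 4877 and 4046 UMIs per cell and 9.10% mitochondrial UMIs. ORS/SC-like cells followed with 453 and 322 CPM, IRS-like cells had 271 and 276, and matrix-like cells 109 and 102. IFE basal-like cells were lowest, at 11.7 and 10.8 CPM. Fibroblasts of the same libraries had 1261 and 1380 CPM, above every keratinocyte group but the Lef1/Krt35 cluster.

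Foxe1 and Vdr shared a leading group outside the matrix and IRS, the cluster of Acta2- and Tagln-positive keratinocytes. Foxe1 had 208 CPM (188 to 229) in control and 137 (113 to 166) in Gli2EKO there, then 116 and 102 in a dividing cluster with Tagln, 76.4 and 58.0 in IRS-like cells and 64.3 and 77.1 in a cluster marked by Spon1 and Sfrp1. In matrix-like cells it had 24.1 and 23.4 CPM, and it had 0 UMIs in shaft-like cells, where 3 counts would have been 3.54 and 9.18 CPM. Vdr had 998 CPM (954 to 1042) in control and 746 (687 to 808) in Gli2EKO in the Tagln/Acta2 cluster, 476 and 449 in the Spon1/Sfrp1 cluster, and 384 and 318 in the dividing Tagln cluster. It reached 79.2 and 52.6 CPM in IRS-like and 76.9 and 74.6 in matrix-like cells. The 7 smooth muscle and pericyte markers, which include Tagln and Acta2 themselves, summed to 4210 and 4643 CPM in the Tagln/Acta2 cluster. Of the 7, 0 were absent from its control cells and 4 from its Gli2EKO cells. In the smooth muscle and pericyte cells the sum was 18563 and 20345 CPM, and Foxe1 and Vdr had 0 UMIs there.

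**Figure D1:**
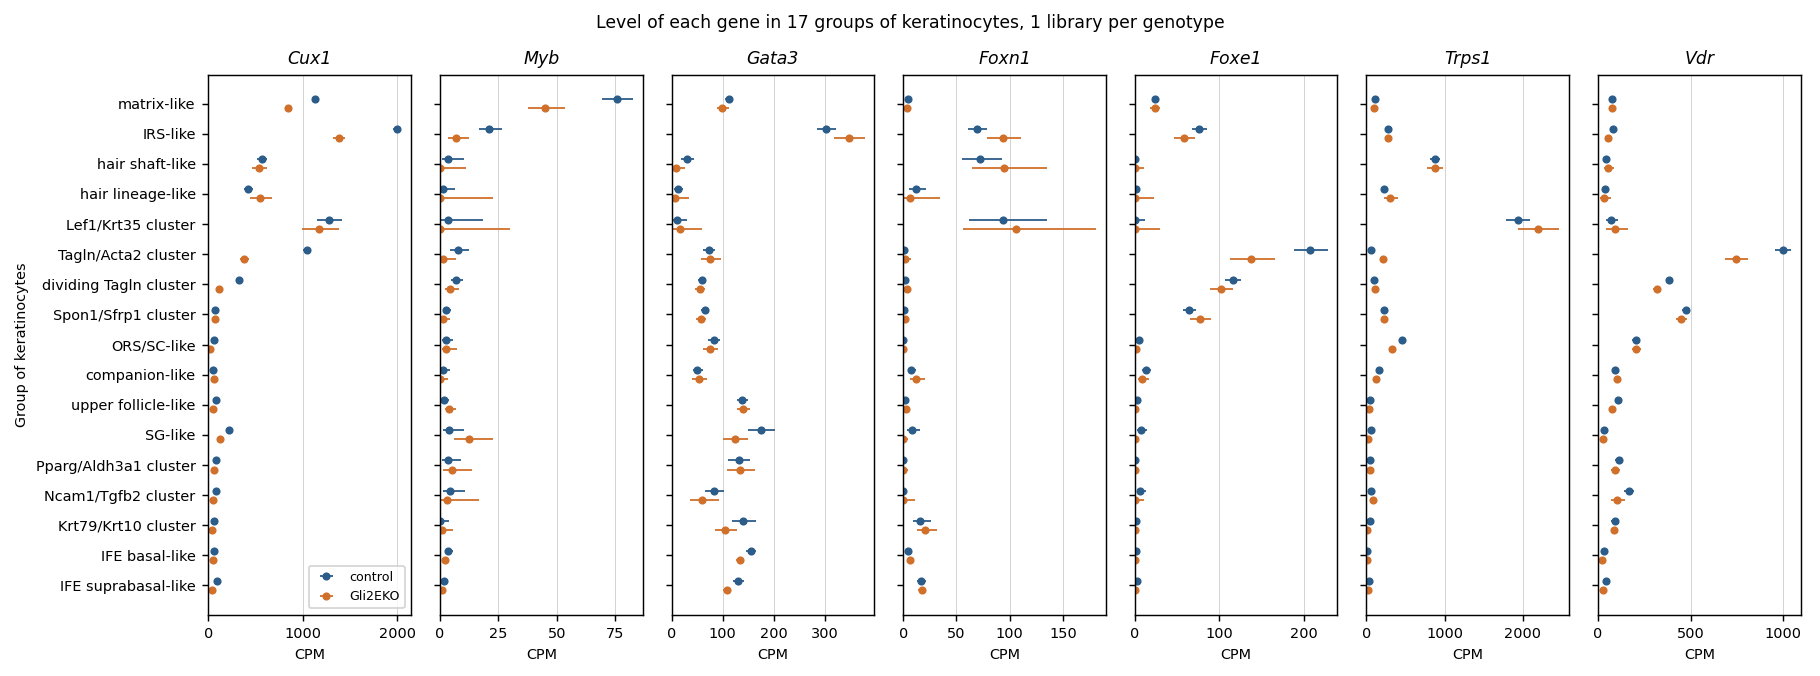
Level of each gene (CPM, 1 horizontal axis per gene) in the 17 groups of keratinocytes, control in blue and Gli2EKO in orange, with 95% Poisson intervals as bars. Cux1 and Gata3 peak in the IRS-like class (1995 and 303 CPM in control), Myb in the matrix-like class (75.8), Foxn1 and Trps1 in the Lef1/Krt35 cluster, and Foxe1 and Vdr in the Tagln/Acta2 cluster.

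The leading group was the same in both libraries for all 7 genes: matrix-like for 1, IRS-like for 2, the Lef1/Krt35 cluster for 2 and the Tagln/Acta2 cluster for 2. Since the genes were chosen on these levels, the share of all genes is given for reference only. In control, 6.40% of 14201 genes were highest in the matrix-like class and 3.73% in the IRS-like class, and in Gli2EKO 4.48% and 2.77% of 13129. Counting matrix-like, IRS-like, shaft-like and hair lineage-like cells and the Lef1/Krt35 cluster together, 5 of the 7 genes led there in each library, against 44.8% of all genes in control and 46.8% in Gli2EKO. Within each order of 17 groups, neighbours often could not be separated by counting error. Of the 16 steps between neighbours, the interval included no difference in 7 for Trps1, 8 for Cux1, 11 for Gata3 and Vdr, 12 for Foxe1 and 14 for Myb and Foxn1 in control. In Gli2EKO the step from IRS-like cells to the Lef1/Krt35 cluster also included none for Cux1 (log2 0.23, −0.01 to 0.49).

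The matrix-like and IRS-like classes were also read along their share of UMIs from 7 IRS markers (Krt71, Krt72, Krt73, Krt25, Krt27, Krt28 and Tchh). These markers also named the IRS-like class. The cells of both classes were sorted into 5 bins on this share. These bins do not order the 2 classes, since 63 of the 342 control and 40 of the 136 Gli2EKO IRS-like cells were in the lowest bin, with under 1.80 marker UMIs per 10000. Gata3 and Foxn1 were highest where IRS markers were highest. Gata3 went from 123 to 383 CPM in control and from 109 to 408 in Gli2EKO between the lowest and highest bin, and Foxn1 from 23.3 to 68.4 and from 24.0 to 84.2. Most of this difference lay between the fourth and the fifth bin. IRS-like cells were 40 of 155 control and 17 of 52 Gli2EKO cells in the fourth bin, and 131 of 148 and 56 of 59 in the fifth. These bins thus differ in their mix of the 2 classes too, and the part of this mix in the values of the 7 genes was not tested.

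Myb showed the opposite order, with a peak in the second bin. It went from 80.0 CPM there to 6.35 in the fifth bin in control and from 66.5 to 3.16 in Gli2EKO. Vdr was lower in the fifth bin than in the first, at 40.0 against 200 CPM in control (log2 −2.32, −2.70 to −1.95) and 44.2 against 103 in Gli2EKO (−1.22, −1.76 to −0.71). Cux1 stayed between 1218 and 1824 CPM in control and between 879 and 1201 in Gli2EKO over the bins, and bin 5 over bin 1 gave a log2 ratio of −0.19 (−0.26 to −0.11) in control and 0.17 (0.05 to 0.29) in Gli2EKO. Trps1 also differed in direction between the libraries, with 221 CPM in the first and 173 in the fifth bin in control but 87.6 and 278 in Gli2EKO. Cells of the first bin were shallower in control, with a median of 7198 UMIs against 12262, and its part in these values was not tested. For Foxe1 the interval between the first and the fifth bin included no difference in either library.

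**Figure D2:**
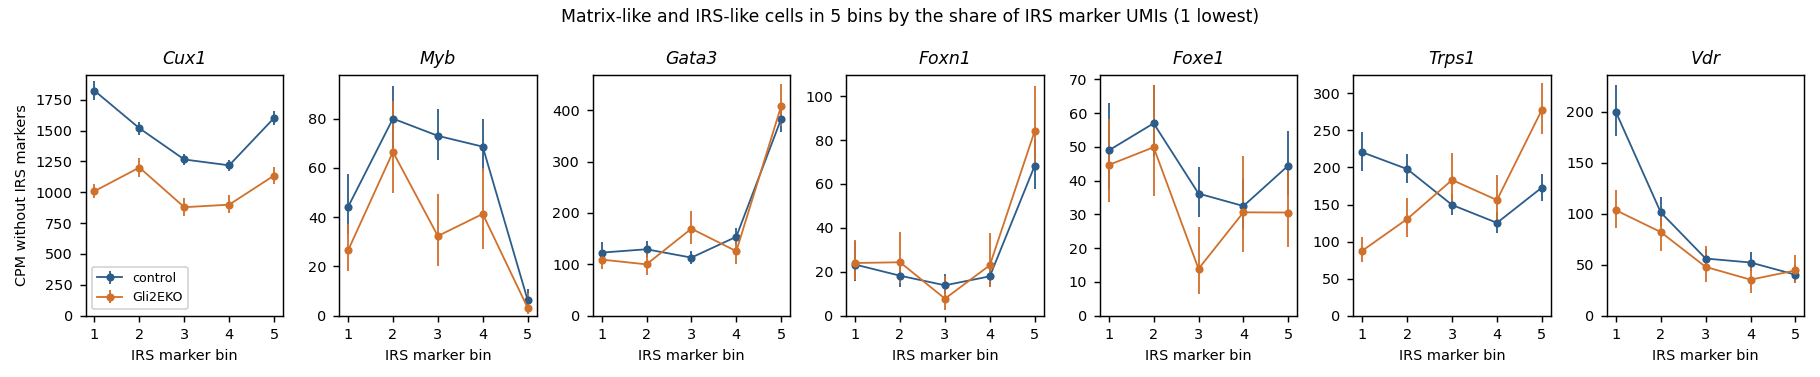
Level of each gene (CPM, IRS marker UMIs left out of the total) in matrix-like and IRS-like cells sorted into 5 bins by their share of IRS marker UMIs, with 95% Poisson intervals. Gata3 and Foxn1 are highest in bin 5 in both libraries, Myb is lowest there (6.35 and 3.16 CPM), and Trps1 runs from 221 to 173 CPM in control and from 87.6 to 278 in Gli2EKO.

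Matrix-like cells were divided at 32.7 cell cycle UMIs per 10000, the median over both libraries together. This put 213 control and 65 Gli2EKO cells in the upper part and 184 and 95 in the lower. Cux1 and Myb were higher in the upper cells. The upper cells were also deeper, with medians of 19704 against 15546 UMIs in control and 20040 against 14441 in Gli2EKO. The upper cells over the lower gave a log2 ratio of 0.34 for Cux1 in control (0.27 to 0.40) and 0.49 in Gli2EKO (0.37 to 0.60), and 0.40 (0.13 to 0.66) and 0.55 (0.02 to 1.09) for Myb. Vdr and Foxe1 were lower in the upper cells in control, at −0.49 (−0.75 to −0.24) and −0.62 (−1.08 to −0.16), and their intervals in Gli2EKO included 0. Gata3 and Foxn1 had intervals including 0 in both libraries. Trps1 was higher in the upper cells in Gli2EKO, at 0.89 (0.54 to 1.25), and at −0.10 (−0.31 to 0.12) in control.

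Over all keratinocytes, 5 of the 7 genes were lower in the Gli2EKO library. The log2 ratio of Gli2EKO over control was −1.34 for Myb (15.5 to 6.12 CPM; interval −1.57 to −1.11), −1.24 for Cux1 (472 to 199 CPM; −1.28 to −1.20) and −0.88 for Foxe1 (37.7 to 20.5 CPM; −1.01 to −0.75). Vdr had −0.67 (184 to 115 CPM; −0.73 to −0.62) and Trps1 −0.62 (147 to 95.3 CPM; −0.68 to −0.56). Gata3, at 119 and 115 CPM, and Foxn1, at 11.7 and 12.3 CPM, had −0.05 (−0.11 to 0.01) and 0.07 (−0.12 to 0.25). The 5 were at or below −0.5, where 13.0% of the 15620 genes with at least 50 UMIs lay, and 0 were at or above 0.5, where 5.38% lay. The median of those genes was −0.14, and relative to it Cux1 stood at −1.11.

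These libraries differ in their mix of cells, so the ratio was also taken with the Gli2EKO groups weighted to the control proportions. It then came to −0.54 for Cux1, −0.70 for Myb, −0.32 for Foxe1, −0.30 for Vdr and −0.06 for Trps1. For each of these 5 genes the difference over all keratinocytes was thus smaller at equal proportions, and Trps1 was near 0. Gata3 stayed at −0.05 and Foxn1 stood at 0.34. Cux1 was lower in Gli2EKO in 19 of the 22 parts weighted, Vdr in 18, Foxe1 in 16, Gata3 in 15, Myb in 14, Trps1 in 13 and Foxn1 in 4. Parts with few UMIs are included, and a part with 0 UMIs in both libraries, as for Foxn1 in ORS/SC-like cells, is not counted as lower. The parts not counted are thus not all higher in Gli2EKO, and no share of all genes stands beside these numbers.

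Within the matrix-like class, Cux1 and Myb were lower in Gli2EKO, at −0.42 (−0.49 to −0.35) and −0.75 (−1.04 to −0.47). The intervals of the other 5 included 0, namely Gata3 at −0.18, Foxn1 at −0.54 from 32 and 9 UMIs, Trps1 at −0.09, and Foxe1 and Vdr at −0.04. Of the 6 genes with at least 50 UMIs, 1 was at or below −0.5 and 0 at or above 0.5, against 9.88% and 6.13% of all genes in that class. The intervals of Gata3, Vdr and Trps1 excluded 0 under some alternatives, at resolution 1 with −0.21 for Gata3, −0.31 for Vdr and −0.49 for Trps1 (−0.66 to −0.32), and Foxn1 came to 0.38 (−0.29 to 1.02) there.

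Within the IRS-like class the genes split. Myb (−1.65, −2.76 to −0.69), Vdr (−0.59, −0.97 to −0.22), Cux1 (−0.53, −0.60 to −0.46) and Foxe1 (−0.40, −0.76 to −0.04) were lower in Gli2EKO. Foxn1 (0.43, 0.12 to 0.73) and Gata3 (0.19, 0.04 to 0.35) were higher, and Trps1 had 0.02 (−0.15 to 0.19). In all, 3 of 7 were at or below −0.5 and 0 at or above 0.5, against 14.4% and 7.01% of all genes. With finer clustering (resolution 1) the IRS-like class kept 173 and 88 cells, Vdr turned to 0.17, Foxn1 came to 0.11 and Trps1 to 0.78, and the interval of Myb included 0 (−1.39, −3.81 to 0.41). The interval of Gata3 included 0 without doublet removal (0.10, −0.05 to 0.25) and with the automatic threshold (0.092, −0.05 to 0.24), and that of Foxe1 did when centred on the median of all genes (−0.29, −0.66 to 0.06) and without integration (−0.33, −0.70 to 0.03).

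Over the 17 groups, Cux1 had the most with an interval below 0, 10, including, beside the matrix-like and IRS-like classes, the Tagln/Acta2 cluster (1043 to 379 CPM, −1.46, −1.64 to −1.28), the dividing Tagln cluster (320 to 110 CPM, −1.54) and the suprabasal-like class (86.8 to 39.6 CPM, −1.13). Its interval was above 0 in hair lineage-like cells (0.38, 0.02 to 0.71). Cux1 was lower also in fibroblasts (−0.38, −0.52 to −0.25) and immune cells (−0.52, −0.81 to −0.24), and the part of such a difference in its keratinocyte values was not tested.

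Trps1 went in opposite directions in different groups. In the Tagln/Acta2 cluster it was higher in Gli2EKO, at 217 against 64.0 CPM from 172 and 127 UMIs (1.76, 1.42 to 2.10), while Cux1, Foxe1 (−0.60) and Vdr (−0.42) were lower there. At resolution 0.3, where this cluster merged into one of 544 and 278 cells, the ratio of Trps1 was 0.37 (0.22 to 0.51). In the Krt79/Krt10 cluster it was lower, at 13.4 against 45.6 CPM (−1.77, −2.78 to −0.85), as it was in SG-like (−1.32), suprabasal-like (−1.03) and ORS/SC-like cells (−0.49). Vdr had 7 of 15 groups with an interval below 0 and none above, Foxe1 2 of 5, and Gata3 4 of 14 with 1 above. These counts also depend on the UMIs of each gene and have no share of all genes beside them. In upper follicle-like cells Foxe1 had 13 UMIs in control (3.06 CPM) and 0 in Gli2EKO, where 3 counts would have been 0.910 CPM.

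**Figure D3:**
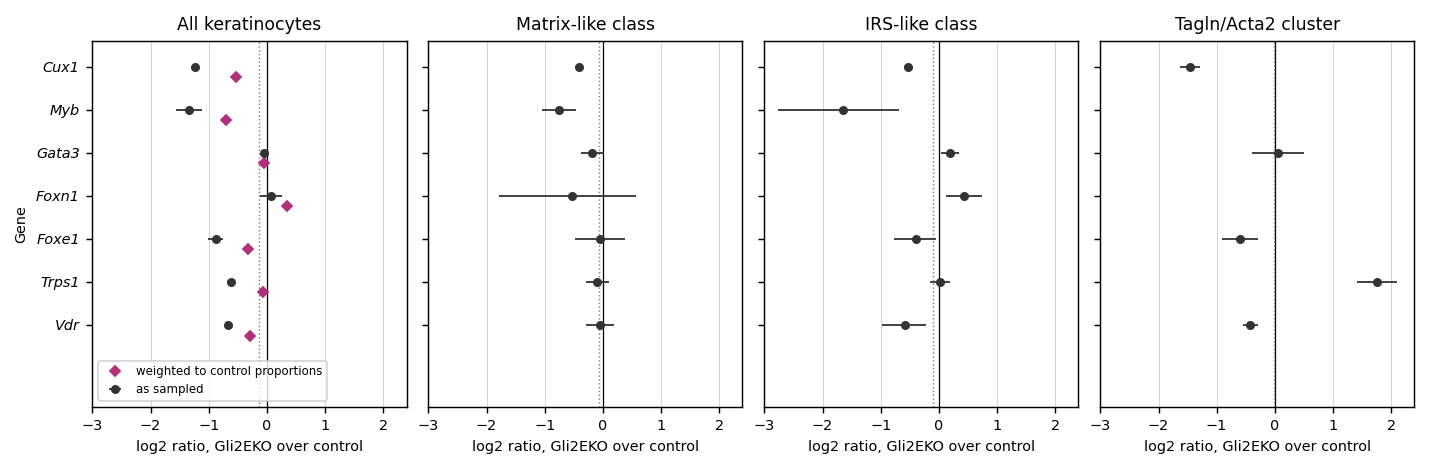
Log2 ratio of each gene, Gli2EKO over control, over all keratinocytes and within 3 groups, with 95% intervals for counting error, the median of all genes as a dotted line, and diamonds for Gli2EKO groups weighted to control proportions. Myb and Foxn1 had too few UMIs to be drawn in the Tagln/Acta2 cluster. The weighted values lie nearer to 0 than the sampled ones for Cux1 (−0.54 against −1.24), and Trps1 stands at 1.76 in the Tagln/Acta2 cluster.

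Shares of cells with at least 1 UMI were compared after thinning each cell to 5000 UMIs, which left 2996 control and 2103 Gli2EKO keratinocytes. Cux1 was found in 44.7% and 29.3% of them (60.3% and 46.1% without thinning), Vdr in 42.8% and 35.2%, Gata3 in 35.3% and 35.5% and Trps1 in 30.0% and 22.3%. Foxe1 was found in 12.3% and 7.47%, Myb in 5.24% and 2.23% and Foxn1 in 4.84% and 4.09%. Immune and endothelial cells were taken as a background for free RNA, but UMIs of their own expression cannot be told apart from it here. They had medians of 9507 and 11518 UMIs before thinning against 12427 and 12888 in keratinocytes. In their 90 and 47 cells Foxe1 was found in 0, which allows shares of up to 3.33% and 6.38%, Myb in 1.11% and 0%, Vdr in 3.33% and 2.13%, Foxn1 in 2.22% and 2.13% and Gata3 in 8.89% and 4.26%. Cux1 (71.1% and 63.8%) and Trps1 (40.0% and 38.3%) were found there at shares above those of keratinocytes, so these 2 cell types do not serve as a background for them. For Foxn1 and Myb the share over all keratinocytes lay within the exact interval of this background in both libraries. Its 90 and 47 cells are too few to separate such shares, so they are read neither as above the background nor as equal to it. In Gli2EKO the Foxe1 share of 7.47% was also not separated from the background, whose exact interval reached 7.55%. Shares were higher in single groups, with Foxn1 in 25.6% and 26.9% of IRS-like, 31.8% and 18.5% of shaft-like and 32.1% and 0% of Lef1/Krt35 cluster cells (28 and 9 cells after thinning), Myb in 25.5% and 12.9% of matrix-like cells and Foxe1 in 51.6% of Gli2EKO cells of the Tagln/Acta2 cluster.

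In single cells, IRS-like cells were nearly all Cux1-positive (100% and 95.7%) and matrix-like cells likewise (94.8% and 89.0%). In the Tagln/Acta2 cluster Vdr was found in 96.2% and 96.8% of cells and Foxe1 in 59.7% and 51.6%, whereas Cux1 was found in 83.0% of control and 53.2% of Gli2EKO cells there. At least 3 of the 7 genes were found in 24.8% of control (23.2% to 26.4%) and 14.4% of Gli2EKO keratinocytes (12.9% to 15.9%). By group, this share was 71.1% and 56.5% in the Tagln/Acta2 cluster, 63.3% and 59.1% in IRS-like, 32.6% and 21.9% in matrix-like and 3.07% and 3.05% in IFE basal-like cells. It was 6.67% and 0% in immune and endothelial cells. No keratinocyte held 6 or 7 of the genes, and none of the 7 was found in 32.7% and 39.9% of IFE basal-like cells against 0% of IRS-like cells in both libraries.

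**Figure D4:**
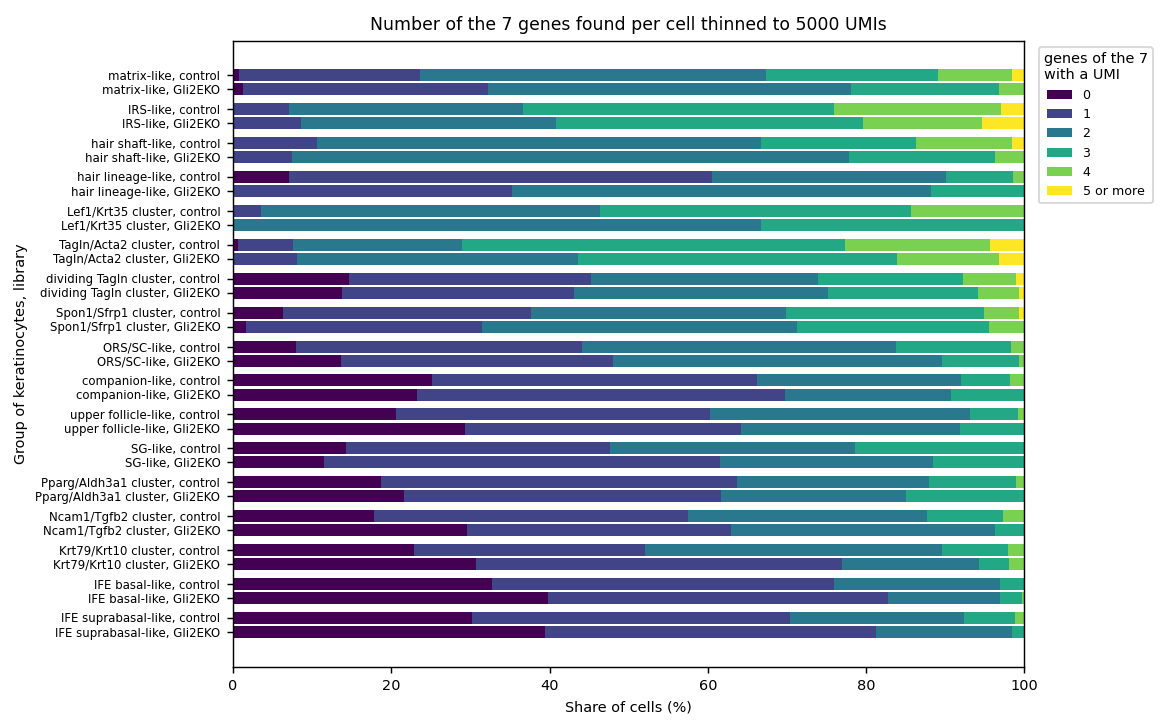
Share of cells (%) in which 0 to 5 or more of the 7 genes were found, per group and library, after thinning to 5000 UMIs. IRS-like cells and the Tagln/Acta2 cluster hold 3 or more in most cells (63.3% and 71.1% in control), IFE basal-like cells in 3.07%.

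For each of the 21 pairs, the share of keratinocytes with UMIs of both genes was set against the product of their separate shares, which is what independent detection would give. Cells of different classes are pooled here, so genes of the same class can lie above it. Pairs of other genes were not counted, so the numbers of pairs below have no reference share. In each library 7 pairs had an interval above the product, 4 below and 10 including it. Above it in both were the 4 pairs of Cux1 with Myb (4.34% against 2.34% in control, 1.57% against 0.656% in Gli2EKO), Foxn1, Foxe1 and Trps1. The fifth was Foxe1 with Vdr (9.28% against 5.29%, and 5.28% against 2.63%), both highest in the Tagln/Acta2 cluster.

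Cux1 and Vdr were found together less often than the product in both libraries (17.2% against 19.1%, and 8.61% against 10.3%), as were Foxn1 and Vdr (1.00% against 2.07%, and 0.856% against 1.44%). Foxe1 and Trps1 lay on opposite sides, below the product in control (2.64% against 3.70%) and above it in Gli2EKO (2.47% against 1.66%). Trps1 and Vdr were at the product in control (12.8% for both) and above it in Gli2EKO (11.4% against 7.84%). The difference between the libraries was not tested. In the Tagln/Acta2 cluster Trps1 was found in 30.6% of 62 Gli2EKO cells (20% to 44%) and 18.2% of 159 control cells (13% to 25%). These intervals overlap.

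Within single groups, few pairs had an interval that missed the product, all in control. With 21 pairs in each of 17 groups and no correction for their number, some intervals would miss it by chance alone. The pairs below are thus listed as a description and are not read as departures from independence. Matrix-like cells held Foxe1 with Vdr above the product (4.35% against 2.31%), and Foxe1 with Trps1 (2 cells, 0.543% against 3.09%) and Trps1 with Vdr (4.08% against 8.36%) below it. IRS-like cells held Foxn1 with Vdr (3.70% against 6.72%) and Foxe1 with Trps1 (2.96% against 6.80%) below it. The dividing Tagln cluster held Cux1 with Gata3 (8.82% against 5.36%) and Foxe1 with Vdr (28.7% against 23.1%) above it, and likewise Cux1 with Foxe1. Suprabasal-like cells held Cux1 with Trps1 above it (4.14% against 1.26%). In Gli2EKO the interval included the product for every pair in every group, with fewer cells in most of them (155 matrix-like cells against 368).

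**Figure D5:**
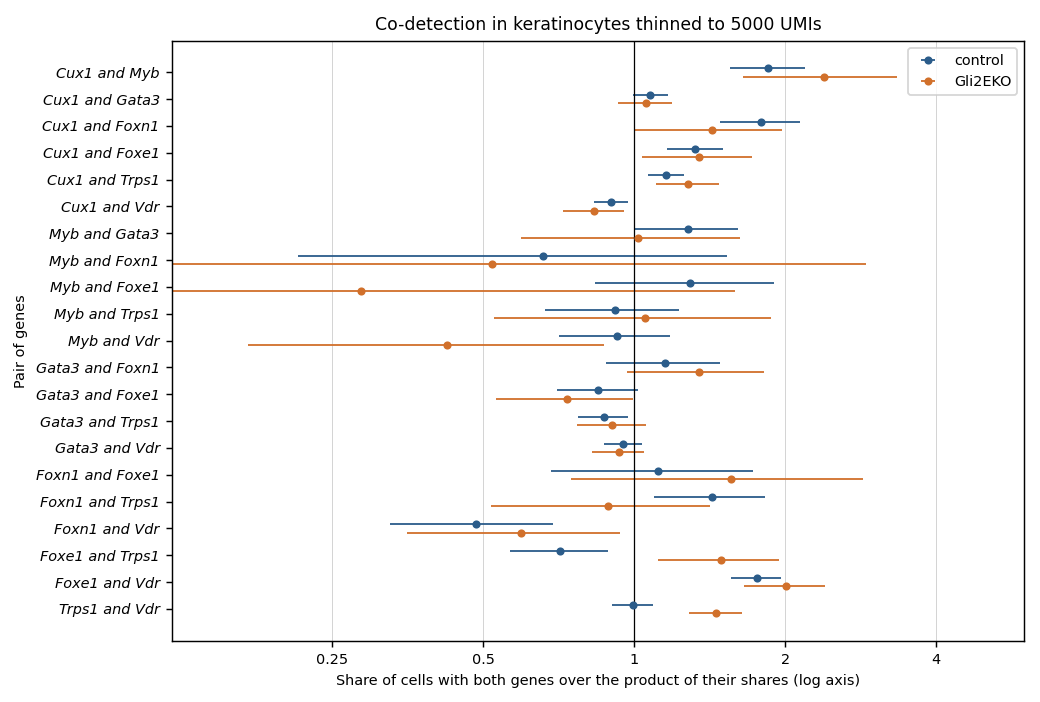
Share of keratinocytes with UMIs of both genes divided by the product of the separate shares, for 21 pairs on a log axis, with 95% intervals in control (blue) and Gli2EKO (orange); the intervals of Myb with Foxn1 and with Foxe1 in Gli2EKO run past the left edge. Cux1 with Myb (1.85 and 2.39) and Foxe1 with Vdr (1.75 and 2.01) lie above 1 in both, Foxn1 with Vdr (0.483 and 0.594) below.

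Some of the genes share their locus with non-coding genes, and the strand setting of the counting is not given in the sources used here, so reads of overlapping genes may not be fully separate. Gm16599 is a long non-coding RNA on the opposite strand inside Cux1 (chromosome 5, 136303850 to 136446748) with 702 and 228 UMIs, 3.22% and 3.45% of those of Cux1. It had 63.8 and 50.6 CPM in IRS-like cells, 36.3 and 31.0 in matrix-like cells and 40.3 and 15.1 in the Tagln/Acta2 cluster, and 97.8% and 94.9% of the cells with it also had Cux1. Over keratinocytes its log2 ratio was −1.15 (−1.37 to −0.93).

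Gm12446 runs antisense across Foxe1 (chromosome 4, 46300007 to 46345530) and had 944 and 273 UMIs, 54.2% and 40.1% of those of Foxe1. Like Foxe1 it was high in the Tagln/Acta2 cluster (107 and 68.0 CPM), and its log2 ratio over keratinocytes was −1.31 (−1.51 to −1.12). Of the cells with it, 63.9% and 64.8% also had Foxe1.

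The genes most like each of the 7 were sought by the Pearson correlation of log2 CPM over the 10 named classes of the control library, among 10093 genes. These classes come from 1 library and share its depth, and the values are a description. Cux1 was most like Gm16599 (r 0.99 in control, 0.96 in Gli2EKO) and was like Sox5, an SRY-box factor (0.95 and 0.92). Myb was most like Shh, the Hedgehog ligand (0.96 and 0.82), Gata3 like Zfpm1, a cofactor of GATA factors (0.92 and 0.95), and Foxn1 like Atf6 (0.94 and 0.71) and Cited4 (0.93 and 0.97). Foxe1 was most like the Wnt receptor gene Fzd5 (0.94 and 0.86), Trps1 like Braf (0.95 and 0.96) and Rb1 (0.94 and 0.95), and Vdr like Kirrel (0.94 and 0.78). Some of these likenesses were not shared by the Gli2EKO library, such as Rilpl2 with Trps1 (0.93 and −0.18) and Spice1 with Vdr (0.93 and 0.23).

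Related genes were read from lists in the same comparison over all keratinocytes. The lists were chosen with earlier results of these data known, so the shares of all genes are given for reference only. Some of the follicle factors, such as Msx1, Msx2 and Foxq1, are also markers used to name the classes. Of 25 other follicle transcription factors with at least 50 UMIs, 11 were at or below −0.5 and 0 at or above 0.5, with a median of −0.44, against −0.67 for the 7 genes and −0.14 for all genes. Among these, Msx1 stood at −2.20, Msx2 at −1.40, Foxq1 at −1.29 and Dlx3 at −1.22. Of 13 epidermal transcription factors 0 were at or below −0.5, with a median of 0.02, and Klf5 stood at 0.51. Paralogs of the 7 genes were measured for 5 of 12, all within 0.5 (Mybl2 at −0.35, Foxn3 at 0.06; median −0.04). Partners and targets of Vdr were measured for 4 of 6, also within 0.5 (the corepressor Hr at −0.47, the partner Rxra at −0.07; median −0.10). Of 9 Hedgehog pathway genes, 5 were at or below −0.5, with a median of −0.61, and of 12 cell cycle genes 1, Mki67 at −0.79, with a median of −0.20. Of all genes 13.0% lay at or below −0.5 and 5.38% at or above 0.5. These ratios were not weighted for the mix of cells. Within matrix-like cells, 10 of 23 other follicle factors (median −0.33) and 1 of 8 Hedgehog genes (−0.12) were at or below −0.5. At or above 0.5 were 2 and 0, and all genes had 9.88% and 6.13%. Within IRS-like cells 7 of 21 (−0.25) and 4 of 8 (−0.50) were below and 3 and 0 above, against 14.4% and 7.01%.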

How the data were processed

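The authors aligned reads of a 10x 3′ v4 assay with Cell Ranger 9.0.1 to GRCm39 (GENCODE M30) and deposited UMI counts per gene and barcode, unnormalized: 6326 control barcodes (71021773 UMIs) and 4296 Gli2EKO barcodes (48866478 UMIs). Cells had over 1000 and under 8000 genes and under 15% mitochondrial UMIs. The 8% of highest Scrublet scores per library were removed (scanpy 1.11.5). scDblFinder and the study's test over cells were not run. Clustering used Seurat 5.3.0 (2000 variable genes without the 7 genes and the Hedgehog genes, 20 components, a rewritten Harmony integration, resolution 0.5). Score limits and cluster splits were set after seeing the data, and a cluster without a clear marker list stayed unnamed. The members and lists were chosen with earlier results of these data known. Named genes are the members, the listed markers and lists, and the 5 genes most correlated with each member. Counts were summed per group as CPM, with exact Poisson, Clopper-Pearson and conditional binomial intervals at 95% (scipy 1.17.1). Ratios and intervals were tested on simulated data. Coordinates come from GENCODE vM39. Alternatives are given in the closing section. Some values of the epidermal transcription factor list are not reported here.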

Additional observations from a re-analysis of the deposited data

Results flagged for a closer look

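Within the 17 groups of keratinocytes, 3 of the genes had intervals on both sides of 0 in different groups with at least 50 UMIs, and the difference between the groups was not tested. The log2 ratio of Cux1, Gli2EKO over control, was 0.38 in hair lineage-like cells and −1.74 in ORS/SC-like cells. That of Gata3 was 0.19 in IRS-like cells and −0.51 in SG-like cells, and the first had an interval including 0 without doublet removal (0.10) and with the automatic doublet threshold (0.092). That of Trps1 was 1.76 in the Tagln/Acta2 cluster and −1.77 in the Krt79/Krt10 cluster. Each rests on 1 library per genotype.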

How the results depend on the processing

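No paired analysis was possible because each genotype has 1 library, and for the same reason no replicate could be left out. Over all keratinocytes, centring on the median of all genes gave −1.11 for Cux1, 0.088 for Gata3, −0.74 for Foxe1, −0.48 for Trps1 and −0.54 for Vdr. Weighting the Gli2EKO groups to control proportions gave −0.54 for Cux1, −0.70 for Myb, 0.34 for Foxn1, −0.32 for Foxe1, −0.063 for Trps1 and −0.30 for Vdr. The 52 other values of 63 moved by less than their interval. In the matrix-like class Cux1 came to −0.51 with the automatic doublet threshold, and at resolution 1 Cux1 came to −0.50, Trps1 to −0.49 and Vdr to −0.31. In the IRS-like class Cux1 came to −0.43 when centred, −0.61 without doublet removal and −0.63 with the automatic threshold, Foxn1 to 0.11 at resolution 1, and Trps1 to −0.32 without doublet removal, 0.78 at resolution 1 and −0.15 without integration. Vdr turned from −0.59 to 0.17 at resolution 1, where the class held 173 and 88 cells, and the cause was not tested. Trps1 in the cluster highest in Acta2 came to 0.37 at resolution 0.3, where that cluster held 544 and 278 cells. Pairs below the product numbered 1 in each library when thinned to 2000 UMIs, and 2 in Gli2EKO without doublet removal and with the automatic threshold. Depth limits Myb and Foxn1 most, with 203 and 407 UMIs in Gli2EKO keratinocytes.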

Other observations

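IRS-like cells were divided at 29.7 cell cycle UMIs per 10000, the median over both libraries together. The upper part held 182 control and 57 Gli2EKO cells and the lower 160 and 79. Cux1 was higher in the upper cells in both libraries (0.09 and 0.46), and Vdr lower (−0.55 and −1.03). Gata3 was higher in the upper cells in control (0.35, 0.17 to 0.53) and lower in Gli2EKO (−0.42, −0.70 to −0.14). Foxn1 was lower in control (−0.49, −0.86 to −0.13), with an interval including 0 in Gli2EKO, and Myb was higher in control (1.07, 0.30 to 1.90).

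Outside keratinocytes, Trps1 was 623 CPM in control and 2093 CPM in Gli2EKO Schwann cells, from 276 and 142 UMIs in 39 and 8 cells, and 142 and 70.8 CPM in melanocytes. Cux1 was 377 and 262 CPM in immune cells.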
